A study of Mus musculus with 14 samples.

Results

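The well-counted long intergenic noncoding RNAs (lincRNAs) of the ileum mucosa were selected on their level: rows of the count table with the biotype lincRNA and a mean of at least 50 raw counts over the 14 samples. This rule gave 71 members of 5559 lincRNA rows and of 54532 rows in the whole table. It used the mean over both genotypes and not the difference between them. A high level in a single genotype could be enough to meet it. The other lincRNA rows were sparse, and 3455 of them had no count in any sample. Just inside the limit were Gm45495 with a mean of 50 counts, Gm20342 with 51.1 and Gm12511 with 52.1. Just outside it were Gm10451 with 48, Gm35696 with 47.3 and Gm31718 with 46.9.

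LincRNAs are transcribed from their own loci between protein-coding genes, mostly by RNA polymerase II, and many are spliced and polyadenylated like mRNAs. Some act in the nucleus as scaffolds of nuclear bodies or as regulators of nearby genes, others bind proteins or microRNAs, and others are hosts from which small RNAs are cut, while for many no function is known. Nuclear receptor corepressors such as NCoR1 bring histone deacetylase to DNA-bound nuclear receptors, and transcription units near such sites can be noncoding as well as coding.

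RNA from scraped ileum mucosa was sequenced from 7 WT and 7 IKO male mice, with 1 library per mouse and no other group. WT mice were NCoR1 flox/flox. IKO mice carried the same alleles together with Cre recombinase under the villin promoter, which is active in epithelial cells of the intestine, so NCoR1 was targeted in these cells and not in the other cells of the mucosa. The methods of the paper give the age of the mice at the start as 7 to 8 weeks, while a figure legend gives an older age. All were on a high-fat diet (HFD) for 15 weeks, so no comparison with another diet can be made here. The labels call the cell type intestinal epithelial cells. Epithelial and enterocyte markers were abundant in every sample, and markers of immune cells were present as well.

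The depth was 14749669 to 21557468 counts per sample. Ncor1, counted over the whole gene, was at 106 to 195 CPM (counts relative to the library size, scaled with TMM factors) in WT samples and at 31.7 to 64.0 CPM in IKO samples, with no overlap (log2 fold change -1.41, adjusted p = 0.00051). WT 4 and IKO 4 stood apart in ways that touch values below. WT 4 held 10128 CPM of summed smooth muscle markers (Des, Actg2, Myh11 and Acta2), against a WT median of 19.6 CPM and an IKO maximum of 724 CPM. In IKO 4, 50.3% of counts were from mitochondrial genes, against 3.49% to 23.9% in the other samples.

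The 71 members lay on 20 chromosomes and were between 265 and 20771 bases long, with a median of 2587 bases. Of them, 28 had predicted gene names starting with Gm, 21 had RIKEN clone names and 22 had other names. RefSeq held an entry for 52 of the 71 members and listed 45 as lncRNA, 5 as protein_coding and 2 as pseudogenes, so the biotype of the deposited annotation is not the only one in use. A single exon was annotated for 11 of the 71 members. Exonic bases were shared with another gene in 20 members, and the shared part was over 10% of the exonic length in 9. The library kit does not mark the strand of the RNA, so reads from such bases cannot be assigned to one strand.

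Together the members took a small part of each library. Their share of all counts ranged from 0.0644% in IKO 4 to 0.392% in WT 2, with medians of 0.226% in WT and 0.122% in IKO. Neat1 alone made up 29.3% of the members' counts and Malat1 9.68%, and the 5 most counted members together 60.3%.

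Of the 71 members, 70 passed the filter on low counts and were tested with all other genes, 13846 in all. The threshold was passed by 8 of these 70 members (11.4%), 4 higher in IKO and 4 lower. Of the 4 lower, Ftx, AI504432 and Gm46430 reached a mean of 50 counts in WT alone, while all 4 higher reached it in both genotypes. The selection rule therefore bears on the split of the members. Over all genes tested, 8.67% were called, 4.38% higher in IKO and 4.28% lower, a split that became 68.3% higher among the calls of limma on log2(FPKM + 1), against 50.6% in the count test. The members' share is close to this background. No overlap between genotypes was found for 5 of the 70 tested members, 3 higher and 2 lower. In either direction, 429 of the 13846 genes tested (3.1%) had none. AI504432, among the lower of these members, reached 50 counts in the WT mean alone. At an unadjusted p under 0.05 there were 26 of the 70 members (37.1%), 20 lower and 6 higher, against 30.4% of all genes tested, 18.5% lower and 11.9% higher. The selection bears on these numbers too: 18 tested members reached 50 counts in the WT mean alone and 1 in the IKO mean alone. The number of called members was 6 to 13 when single samples were left out. The 13, of 71 tested members, came when IKO 6 was left out, where 1218 of 14082 genes were called.

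**Figure D1:**
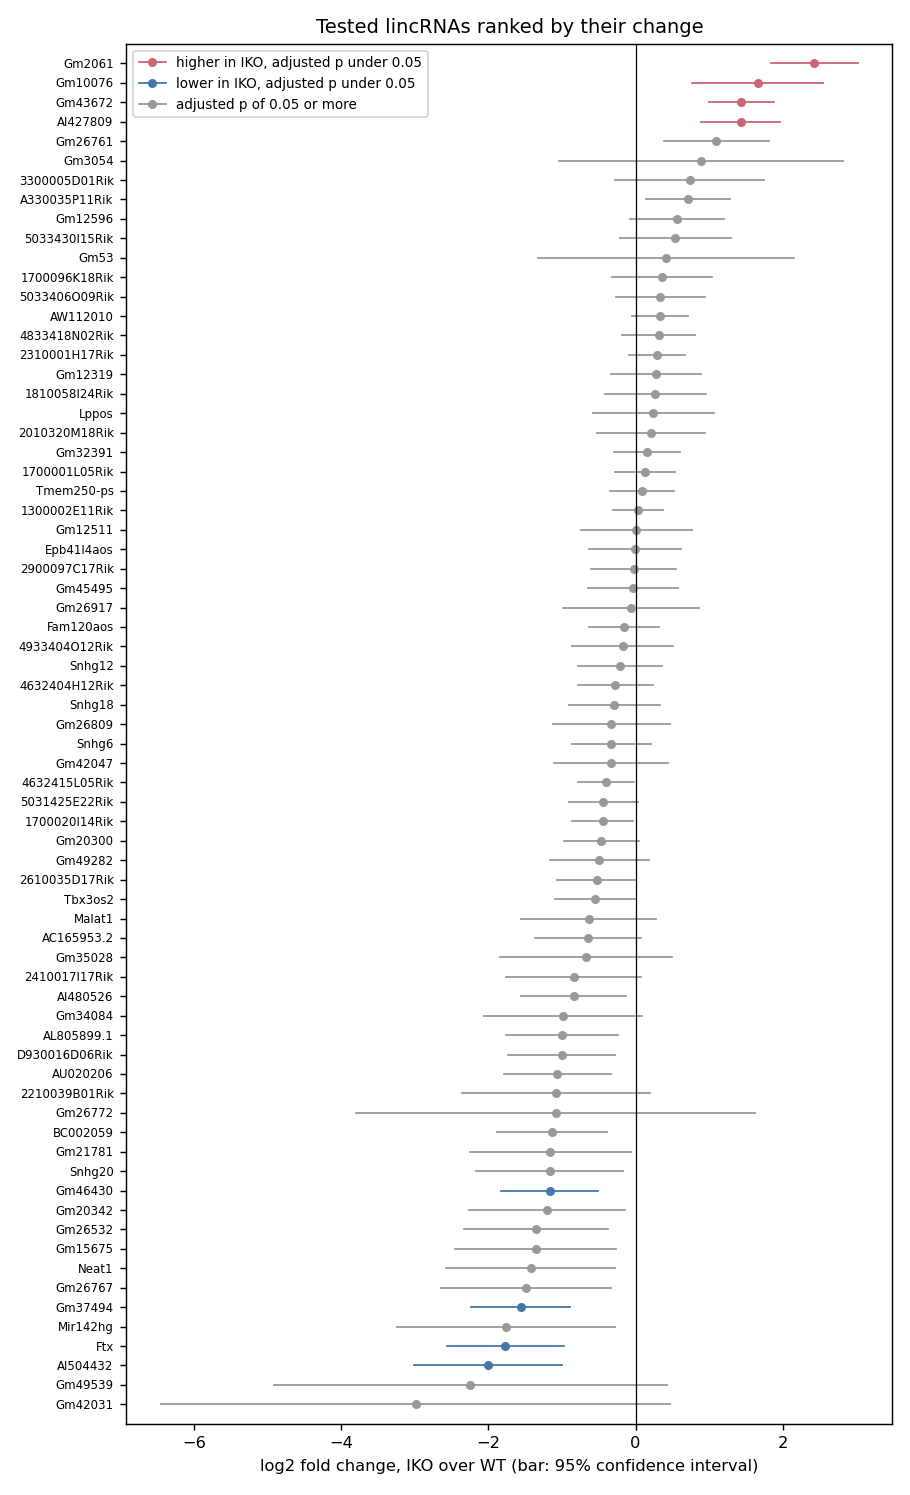
Log2 fold change of IKO over WT (x axis) for the 70 tested lincRNAs (y axis, ranked), with points for the estimate, bars for the 95% confidence interval and colours for the call at an adjusted p under 0.05. The 4 members called higher are at the top, and the 4 called lower lie among members with wider intervals, with Gm42031 at the bottom.

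Most of the members that missed the threshold were estimated lower in IKO. The log2 fold change was negative in 45 of 70 members (64.3%) against 56.5% of all genes tested, and its median was -0.33 in the members and -0.09 in all genes. This median was -0.22 without WT 2, the sample in which 20 of the 70 members had their highest value, and IKO 5 held the lowest value of 16 members. The limit of 50 counts bears on this median, since 18 tested members reached it in the WT mean alone and 1 in the IKO mean alone. Over the 51 members that reached it in both genotypes, a division chosen after seeing the data, the median was -0.06, so the lower median of all members is not read as a result about them. The summed stem and cycling markers had medians of 203 CPM in WT (82.1 to 251) and 98.1 CPM in IKO (36.9 to 149), with overlap. Medians were 13064 and 17631 CPM for the epithelial markers and 33529 and 47275 CPM for the ileal enterocyte markers. None of the 3, 5 and 4 genes in these lists was called, and their part in the members' values was not tested. Of the other marker lists, the goblet list had a higher median in IKO and all the rest a lower one. Since the samples are whole mucosa, fewer cells of a type and less RNA per cell cannot be told apart here.

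Gm2061, a lincRNA of 3 exons, rose most. Its locus (ENSMUSG00000097615) is on the minus strand at chr1:185447116-185455568 (mm10). It was at 2.51, 3.89 and 5.91 CPM in WT as lowest, median and highest value, and at 9.78, 18.3 and 34.1 CPM in IKO. Every IKO sample was above every WT sample. The fold was 5.39 (95% confidence interval 3.59 to 8.10; log2 fold change 2.43 ± 0.28 SE, adjusted p = 0.00022), and the exact two-sided permutation test gave p = 0.000583, the smallest that 3432 divisions of the samples allow. The call held under each of the 23 alternatives.

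The nearest coding gene of Gm2061 is Slc30a10, a manganese exporter, which starts on the opposite strand at chr1:185454848 inside the Gm2061 locus. Exon 1 of Gm2061, 533 bases, lies wholly within the Slc30a10 locus and makes up 19.3% of the exonic length of Gm2061, while exons 2 and 3 lie outside it. Exon 2 is shown because its bases belong to Gm2061 and not to the exons of Slc30a10, and the 250 bases before the start of Slc30a10, which lie in the first intron of Gm2061, are shown beside it, both 5′ to 3′ on the strand of their gene. The Slc30a10 window held none of the motifs searched, which are named with the AI427809 window.
Gm2061 exon 2 (chr1:185454005-185454133, minus strand, GRCm38): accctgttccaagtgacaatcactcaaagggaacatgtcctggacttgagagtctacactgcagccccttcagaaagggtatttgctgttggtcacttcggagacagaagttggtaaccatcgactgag
Slc30a10 promoter (chr1:185454598-185454847, plus strand, GRCm38.p6): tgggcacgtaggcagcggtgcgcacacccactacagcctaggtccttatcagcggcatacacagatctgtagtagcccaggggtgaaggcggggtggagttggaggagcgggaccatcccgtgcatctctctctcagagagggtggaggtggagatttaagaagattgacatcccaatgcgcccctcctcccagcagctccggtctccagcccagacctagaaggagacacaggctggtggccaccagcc

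Slc30a10 was at 4.28, 8.64 and 23.6 CPM in WT as lowest, median and highest value, and at 7.66, 28.6 and 41.9 CPM in IKO. The groups overlapped: 5 IKO samples were above every WT sample, while IKO 2 and IKO 4 were within the WT range. It was called higher by a narrow margin (log2 fold change 1.37 ± 0.41 SE, adjusted p = 0.0495; exact permutation p = 0.0181). The call was lost in 11 of the 14 fits that left out 1 sample, and adjusted p ranged from 0.0118 to 0.134 over the 23 alternatives. IKO 4 had the highest Gm2061 level of all samples and, at 10.5 CPM, the lowest Slc30a10 level of the IKO samples after IKO 2, above the WT median. Reads shared between exon 1 of Gm2061 and the first exon of Slc30a10 could not be separated by strand, and the part of these reads in either result was not tested.

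Gm43672, a single-exon lincRNA, rose together with its neighbour. Its locus (ENSMUSG00000106019) is on the minus strand at chr3:22074412-22076142. Levels were 4.78, 5.18 and 7.61 CPM in WT and 12.6, 15.1 and 27.0 CPM in IKO, given as lowest, median and highest. No IKO sample overlapped the WT samples, and IKO 2 was the highest. The fold was 2.70 (1.99 to 3.67; log2 fold change 1.43 ± 0.21 SE, adjusted p = 0.0013; exact permutation p = 0.000583).

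Tbl1xr1, which encodes a subunit of the NCoR and SMRT corepressor complexes, starts 510 bases away on the opposite strand, so the genes point away from each other and share no exonic base. Tbl1xr1 was at 49.5, 57.2 and 72.2 CPM in WT and at 105, 146 and 204 CPM in IKO. Again every IKO sample was above every WT sample. Its fold was 2.70 (2.12 to 3.43; log2 fold change 1.43 ± 0.16 SE, adjusted p = 0.00022). Both calls held under each of the 23 alternatives, and without WT 4 and IKO 4 the log2 fold changes were 1.46 for Gm43672 and 1.48 for Tbl1xr1. The first 150 bases of Gm43672 and the 250 bases before the Tbl1xr1 start are shown because both genes start from this stretch, in opposite directions. Of the motifs searched, none was found in the Tbl1xr1 window.
Gm43672, first bases (chr3:22075993-22076142, minus strand, GRCm38): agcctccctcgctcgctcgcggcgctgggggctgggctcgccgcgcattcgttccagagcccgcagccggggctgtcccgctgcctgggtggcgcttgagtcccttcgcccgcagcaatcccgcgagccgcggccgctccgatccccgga
Tbl1xr1 promoter (chr3:22076402-22076651, plus strand, GRCm38.p6): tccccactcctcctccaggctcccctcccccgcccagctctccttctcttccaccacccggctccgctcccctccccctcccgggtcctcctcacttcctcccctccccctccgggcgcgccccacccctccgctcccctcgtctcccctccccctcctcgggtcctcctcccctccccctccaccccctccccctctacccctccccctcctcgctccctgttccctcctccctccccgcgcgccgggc

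AI427809, named Mexis in RefSeq, is an RNA known from macrophages, where liver X receptors (LXRs) induce it and where it has been described as a regulator of Abca1. It was the most abundant of the spliced called members, with a mean of 27.2 FPKM (the deposited values per kilobase of gene length, scaled for depth). The locus (ENSMUSG00000086712) is on the minus strand at chr4:53261356-53270232. Levels were 20.9, 27.7 and 64.1 CPM in WT and 73.2, 89.9 and 130 CPM in IKO, and the genotypes did not overlap. The fold was 2.70 (1.86 to 3.92; log2 fold change 1.43 ± 0.25 SE, adjusted p = 0.0055; exact permutation p = 0.000583), and the call held under each of the 23 alternatives.

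Abca1, the exporter of cholesterol to apolipoprotein A-I and a textbook LXR target, is the nearest coding gene, 101461 bases downstream on the same strand. Its levels were 30.3, 63.0 and 123 CPM in WT and 20.2, 210 and 366 CPM in IKO. As for Slc30a10, 5 IKO samples were above every WT sample, but IKO 2 was at 63.3 CPM, the WT median, and IKO 4 at 20.2 CPM was the lowest of all. The estimate was of similar size to that of AI427809 and less certain (log2 fold change 1.39 ± 0.49 SE, fold interval 1.27 to 5.42), and it missed the threshold (adjusted p = 0.081; exact permutation p = 0.107). Without IKO 4, adjusted p was 0.0297, and with DESeq2 it was 0.0316, while the other 21 of the 23 alternatives gave no call and the range over all of them was 0.0297 to 0.356. In IKO 4 the lincRNA and the coding gene therefore stood at opposite ends: AI427809 had its highest value there and Abca1 its lowest. Among WT samples, WT 5 and WT 6 were the highest for both genes.

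The promoter windows of this pair are shown because the hexamer AGGTCA, which many nuclear receptors bind as a repeat, was searched on both strands together with the TATA box TATAAA and the E-box CACGTG, and matches are in capitals. The AI427809 window, from 250 bases before to 50 bases after the RefSeq start, held 1 hexamer, as did 16.3% of 32851 RefSeq promoter windows of the same length. The 250 bases before the Abca1 start held 1 TATA box and 1 E-box and no hexamer. In comparison, 12.4% of windows of that length held the TATA box and 6.02% the E-box. No pair of hexamers in the same direction with 1 to 5 bases between them was present in either window, and 26 of the 32851 full windows held such a pair. Only these exact letters were searched, so a site or repeat that differs from them by any number of bases was not found. A match in letters is a description and not a binding site, and a missing match does not show that a site is absent.
AI427809 promoter (chr4:53270183-53270482, minus strand, GRCm38.p6): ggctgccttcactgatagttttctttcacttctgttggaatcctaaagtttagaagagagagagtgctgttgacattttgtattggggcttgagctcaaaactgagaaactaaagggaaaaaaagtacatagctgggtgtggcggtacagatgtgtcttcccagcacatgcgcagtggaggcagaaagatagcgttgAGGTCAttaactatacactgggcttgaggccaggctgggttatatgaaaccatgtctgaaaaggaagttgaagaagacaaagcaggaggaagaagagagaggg
Abca1 promoter (chr4:53159896-53160145, minus strand, GRCm38.p6): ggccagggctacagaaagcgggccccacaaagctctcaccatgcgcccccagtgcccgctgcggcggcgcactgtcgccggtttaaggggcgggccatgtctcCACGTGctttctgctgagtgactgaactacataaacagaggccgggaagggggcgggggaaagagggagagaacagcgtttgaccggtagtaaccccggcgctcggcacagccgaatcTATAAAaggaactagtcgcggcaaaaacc

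**Figure D2:**
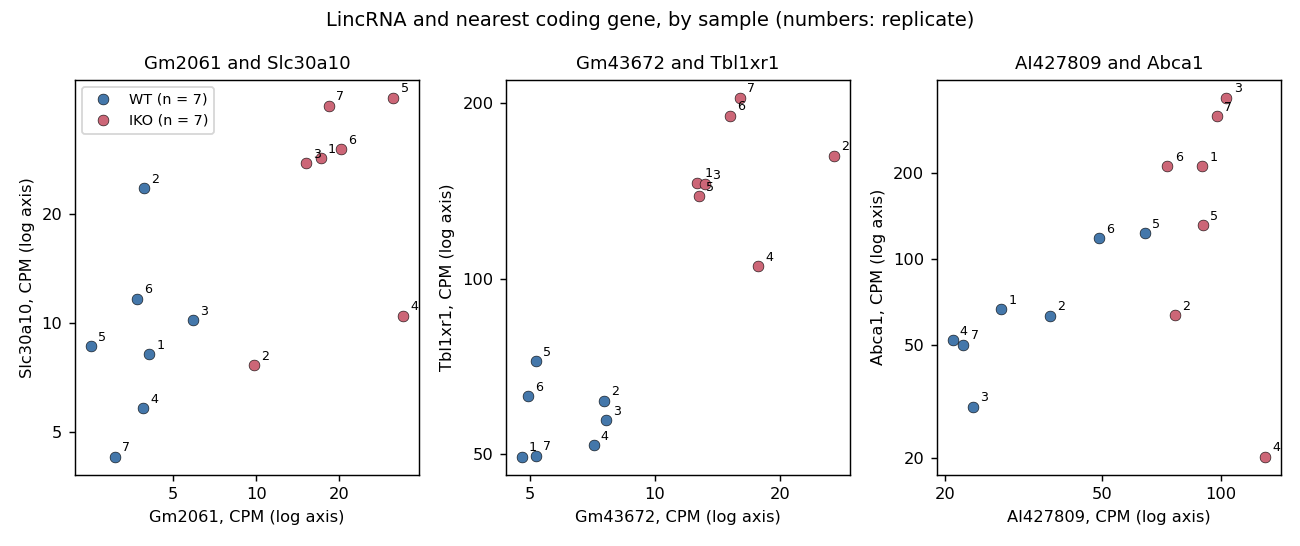
CPM of a lincRNA (x axis, log scale) against CPM of its nearest coding gene (y axis, log scale) in the 7 WT and 7 IKO samples, numbered by replicate, for Gm2061 and Slc30a10, Gm43672 and Tbl1xr1, and AI427809 and Abca1. The genotypes separate on the x axis of each panel, while on the y axis they separate for Tbl1xr1 and overlap for Slc30a10 and Abca1, where IKO 2 and IKO 4 lie low.

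Gm10076 (ENSMUSG00000060143; plus strand, chr14:105681828-105682211), a single exon of 384 bases that RefSeq lists as a pseudogene, was also called higher. Levels were 6.08, 8.10 and 13.7 CPM in WT and 3.93, 27.2 and 65.2 CPM in IKO. Of the IKO samples, 6 were above every WT sample, and IKO 3 was the lowest of all 14. The log2 fold change was 1.66 ± 0.42 SE (adjusted p = 0.0276; exact permutation p = 0.0245), and the call was lost without IKO 1, IKO 5, WT 4 or WT 7. Reads of a pseudogene can come from the gene it was copied from, so its level is uncertain. Its nearest coding gene Spry2, an inhibitor of receptor tyrosine kinase signalling, is 209736 bases away and was not called (log2 fold change 0.14 ± 0.20 SE, adjusted p = 0.67).

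The 4 members that fell in IKO were all less abundant per length than those that rose, with means under 1 FPKM. Gm37494 (ENSMUSG00000108621; plus strand, chr7:39544402-39580589), for which RefSeq has the protein_coding entry Gm33989, showed no overlap. It was at 10.05, 13.8 and 16.1 CPM in WT and at 1.70, 3.28 and 8.32 CPM in IKO. The log2 fold change was -1.56 ± 0.32 SE, 0.339 of the WT level (0.213 to 0.540; adjusted p = 0.0103; exact permutation p = 0.000583), and the call held under each of the 23 alternatives. The neighbouring zinc finger gene Zfp619, 3982 bases away on the same strand, did not pass the filter on low counts, at 0.258 to 1.56 CPM in WT and 0 to 0.765 CPM in IKO. All 7 IKO samples were below the WT median (exact permutation p = 0.0519), and without the filter the log2 fold change was -1.14 (adjusted p = 0.31).

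Ftx, an RNA of the X inactivation centre known as a regulator of Xist in female cells, was lower in IKO mice. Its locus (ENSMUSG00000086370) is on the minus strand at chrX:103560907-103623754. Of its exonic length, 10.3% is shared with annotated genes on either strand, and Gm38020 has the largest overlap. Levels were 2.28, 4.21 and 7.15 CPM in WT and 0.437, 0.877 and 2.35 CPM in IKO. The ranges overlapped where IKO 6, at 2.35 CPM, passed the lowest WT sample, WT 6. Its log2 fold change was -1.77 ± 0.38 SE (adjusted p = 0.0128, exact permutation p = 0.00117). Ftx held 628 counts in the WT samples and 156 in the IKO samples. It reached the selection limit in the WT mean alone, so the selection bears on its place among the lower members. The nearest coding gene Zcchc13, 6832 bases away on the opposite strand, had 0 counts in every sample.

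Ftx is also the host of 2 microRNA hairpins on its strand, Mir421 and Mir374b. Mature microRNAs were not measured by these libraries. The sequences are shown as products that the locus encodes, with the seed (bases 2 to 8) in capitals. For Mir421 the reference used here held the 5p arm alone, so the list may not be complete. The 3 seeds shown differ, so they form no shared seed group.
mmu-miR-421-5p: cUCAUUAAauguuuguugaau
mmu-miR-374b-5p: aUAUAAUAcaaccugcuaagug
mmu-miR-374b-3p: gGUUGUAUuaucauuguccgag

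AI504432 (ENSMUSG00000056145; plus strand, chr3:107039504-107054347) had the strongest fall of the called members, at 3.01, 4.98 and 10.9 CPM in WT and 0.328, 0.994 and 2.95 CPM in IKO. The genotypes did not overlap, though the highest IKO sample came close to the lowest WT sample. On the log2 scale it fell by 2.01 ± 0.47 SE (adjusted p = 0.0201, exact permutation p = 0.000583). AI504432 held 849 counts in the WT samples and 163 in the IKO samples, and it reached the selection limit in the WT mean alone. The selection therefore bears on its place among the lower members without overlap. Its nearest coding gene Kcna3, a potassium channel best known from T lymphocytes, lies 1434 bases upstream and did not pass the filter on low counts (exact permutation p = 0.28; without the filter, log2 fold change -2.26 and adjusted p = 0.24). Kcna3 had 0 counts in WT 2, WT 3, WT 4, IKO 2 and IKO 4 and at most 2.90 CPM in WT and 0.482 CPM in IKO. The T cell markers Cd3e, Cd3g, Cd8a and Trac, of which 0 of 4 were called, summed to 41.7 to 96.4 CPM in WT and 35.1 to 69.9 CPM in IKO, and their part in the fall of AI504432 was not tested.

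Gm46430 (ENSMUSG00000113204; minus strand, chr13:74579358-74617945), which RefSeq lists as protein_coding, was the least certain of these calls. It was at 3.87, 5.63 and 8.63 CPM in WT and at 1.14, 2.94 and 4.19 CPM in IKO, with overlap where IKO 6 exceeded the 2 lowest WT samples. Its estimate was a log2 fold change of -1.17 ± 0.31 SE (adjusted p = 0.0348, exact permutation p = 0.00175). Gm46430 held 789 counts in the WT samples and 292 in the IKO samples. With the selection limit reached in the WT mean alone, the selection bears on its place among the lower members too. The call was lost without any 1 of IKO 1, IKO 4, IKO 5, WT 3, WT 4 or WT 7. Erap1, an aminopeptidase that trims peptides for MHC class I, is 21623 bases away and was not called (log2 fold change -0.31 ± 0.39 SE, adjusted p = 0.61).

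**Figure D3:**
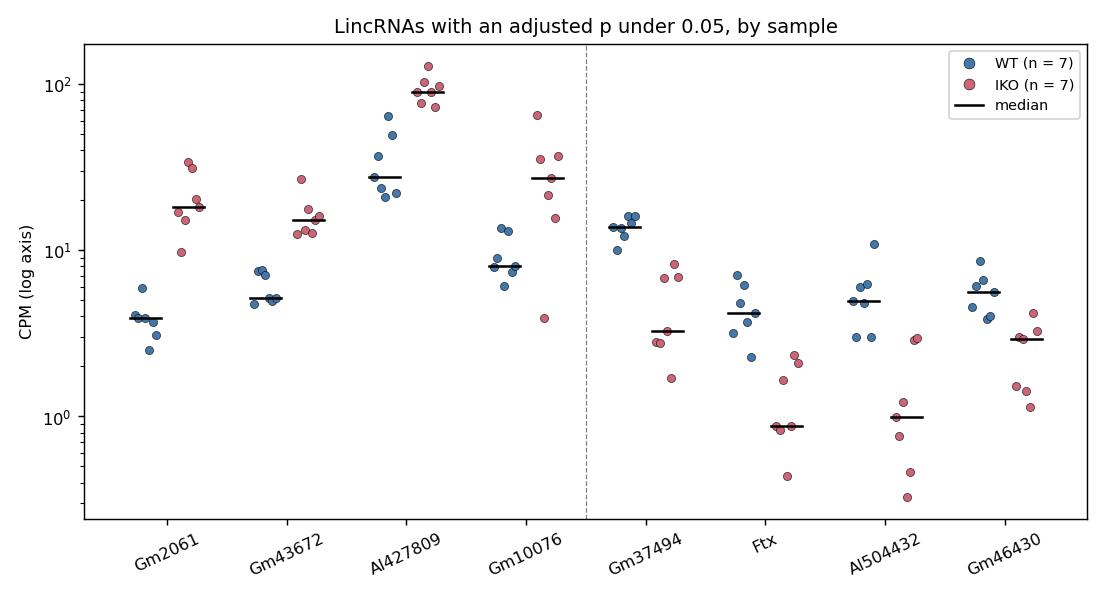
CPM (y axis, log scale) of the 8 called lincRNAs in each of the 7 WT and 7 IKO samples, with the median as a line; the 4 members higher in IKO are left of the dashed line and the 4 lower in IKO are right of it. Gm2061, Gm43672, AI427809, Gm37494 and AI504432 show no overlap between genotypes, and the low IKO point of Gm10076 is IKO 3.

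Nearest coding genes were close to most members. The gap between gene bodies had a median of 3.479 kb, 45 members had a coding gene within 10 kb, 7 overlapped one, and in 33 of 71 pairs both genes were on the same strand. Of the 8 called members, 5 had a nearest coding gene that passed the filter, and 2 of these were called, Slc30a10 and Tbl1xr1, both in the direction of the lincRNA. Over all protein_coding genes tested, 9.11% were called, and 2 of 5 is too few to be read as an excess. Slc30a10 shares exonic bases with Gm2061, and its call was lost in 17 of the 23 alternatives. Zfp619, Zcchc13 and Kcna3, the neighbours of 3 of the 4 members that fell, did not pass the filter, and of these Zcchc13 alone had no count.

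Beside the 63 members that were not called or not tested, 54 nearest coding genes passed the filter and 5 were called, all higher in IKO. This is near the 9.11% called over all protein_coding genes tested and is not read as a result about neighbours. Over all genes tested, 4.38% were called higher and 4.28% lower. These were Sec14l1 beside Snhg20 (log2 fold change 0.58, adjusted p = 0.0276), Ttc7 beside 4833418N02Rik (0.66, 0.0467), Atp5mpl beside 5033406O09Rik (0.88, 0.0243), Ube2q1 beside 4632404H12Rik (0.50, 0.0280) and Ift22 beside 4933404O12Rik (0.90, 0.0245). The lincRNA partners had log2 fold changes of -1.17, 0.31, 0.34, -0.28 and -0.18 in the same order, so the estimates had the same sign in 2 of these 5 pairs. In the pair of 4833418N02Rik and Ttc7 only 72 bases separate the genes, which lie on opposite strands.

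**Figure D4:**
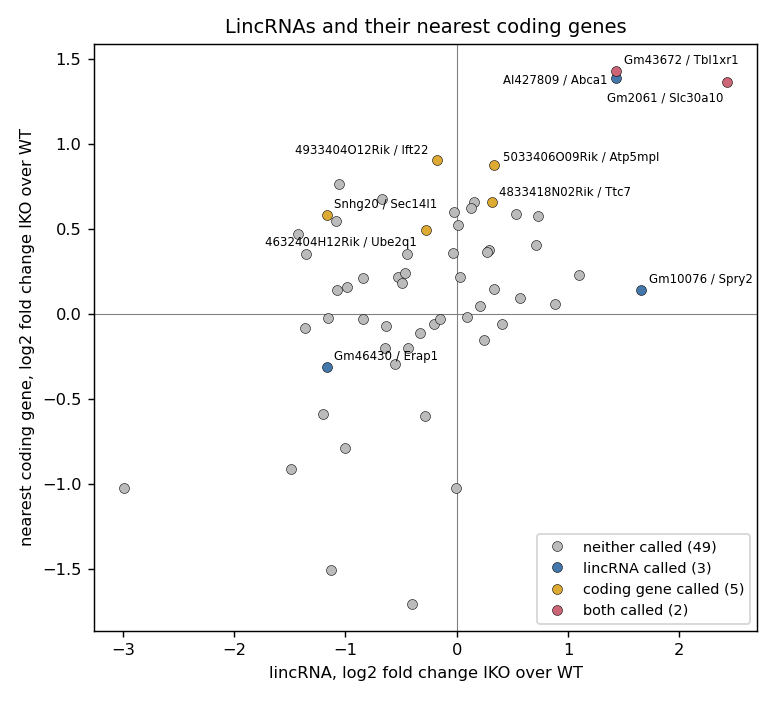
Log2 fold change of each lincRNA (x axis) against that of its nearest coding gene (y axis) for the 59 pairs in which both were tested, coloured by which of them had an adjusted p under 0.05. Both were called in 2 pairs at the upper right, 3 pairs had a called lincRNA only, and 5 pairs had a called coding gene only.

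Among the 12 tested members of the lists of known noncoding RNAs, Ftx was the 1 call (8.33%, against 8.67% of all genes tested). Neat1, the scaffold of paraspeckles, was the most counted member. It was at 160, 476 and 2631 CPM in WT and at 122, 264 and 555 CPM in IKO, and the highest value was that of WT 2, more than 3 times the next. The log2 fold change was -1.43 ± 0.54 SE and missed the threshold (adjusted p = 0.097), and DESeq2 gave an adjusted p of 0.0497. Without WT 2 the log2 fold change was -0.65 (adjusted p = 0.26). Malat1, an RNA of nuclear speckles, was at 98.9, 193 and 290 CPM in WT and 35.03, 102 and 283 CPM in IKO (log2 fold change -0.64 ± 0.43 SE, adjusted p = 0.33). The IKO samples were spread more widely than the WT samples, with IKO 1, IKO 2 and IKO 5 below the lowest WT sample.

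The 4 members of the snoRNA host family, whose introns carry small nucleolar RNAs, had no call. Snhg20 had the largest estimate, at 4.80 to 34.7 CPM in WT and 3.46 to 13.1 CPM in IKO (log2 fold change -1.17, adjusted p = 0.11). The estimates for Snhg6, Snhg12 and Snhg18 were -0.33, -0.21 and -0.29 with adjusted p of 0.39, 0.63 and 0.53. For Snhg6 the fold interval was 0.548 to 1.15 and for Snhg12 0.582 to 1.29, so a fall by a factor of 2 lies outside both.

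Of the cytoplasmic regulators, 2900097C17Rik (Norad in RefSeq), which binds PUMILIO proteins, was at 19.2, 73.0 and 82.2 CPM in WT and 38.6, 62.8 and 85.9 CPM in IKO, with a fold of 0.982 (0.655 to 1.47, adjusted p = 0.96). 1700020I14Rik (Oip5os1 in RefSeq, also called Cyrano), which directs the decay of miR-7, was at 69.9, 102 and 110 CPM in WT and 42.7, 65.7 and 100 CPM in IKO (fold 0.733, 0.550 to 0.977; adjusted p = 0.14). Epb41l4aos, named from the lists of known noncoding RNAs and not as a cytoplasmic regulator, gave a fold of 0.993 (0.643 to 1.53, adjusted p = 0.99). The signs of the Norad and Epb41l4aos estimates changed under some of the alternatives, so no direction is given for them.

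AW112010, an RNA induced by interferon and bacterial products in immune cells, had the highest level per length of all members, with a mean of 89.6 FPKM. It was at 46.4, 55.5 and 82.8 CPM in WT and 59.4, 67.1 and 105 CPM in IKO (fold 1.26, 0.968 to 1.64; adjusted p = 0.22). Gm26917 followed with a mean of 61.6 FPKM, a locus that is known to collect reads of ribosomal RNA, at 90.3 to 497 CPM in WT and 67.6 to 452 CPM in IKO (adjusted p = 0.94). Gm10076 had 50.2 FPKM, Gm3054 40.4 FPKM and AI427809 27.2 FPKM, the next in this order. Gm3054 lies 4707 bases from Muc3 and varied widely between samples, from 0.580 to 17.9 CPM in WT and from 0.589 to 60.4 CPM in IKO (adjusted p = 0.53).

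Mir142hg, host of the blood cell microRNA miR-142, was at 0.679, 4.25 and 26.1 CPM in WT and 0.665, 1.99 and 3.24 CPM in IKO (log2 fold change -1.76 ± 0.70 SE, adjusted p = 0.11). Without WT 3 the log2 fold change was -0.79 (adjusted p = 0.36). The high value was that of WT 3, which also had the highest sums of several marker lists. They were the B and plasma cell (612 CPM against a WT median of 407), macrophage (32.9 against 13.3), T cell (96.4 against 53.8) and endothelial markers (22.6 against 7.60). None of the 4, 3, 4 and 2 genes in these lists was called, and their part in the Mir142hg values was not tested. In WT 3, 23.9% of counts were from mitochondrial genes. Among the members, 5 loci held 6 microRNA hairpins in all on their strand: Ftx, AL805899.1 with Mir31, Mir142hg, Snhg20 with Mir6516 and Meg3 with Mir770. The mature forms encoded by the Mir142hg locus are shown for the same reason as those of Ftx.
mmu-miR-142a-5p: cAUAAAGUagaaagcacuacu
mmu-miR-142a-3p: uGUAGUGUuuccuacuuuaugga

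Meg3, a maternally expressed imprinted RNA, was the 1 member that did not pass the filter. WT 4 held 1244 of its counts, at 59.1 CPM, while the median was 0.531 CPM in WT and 0.155 CPM in IKO and the highest IKO sample was at 2.18 CPM. It met the selection rule through this 1 library, the one with the high smooth muscle markers. The fibroblast markers (Col1a1, Col3a1, Pdgfra and Dcn) were also highest there, at 234 CPM against a WT median of 22.4, and the part of either cell type was not tested.

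**Figure D5:**
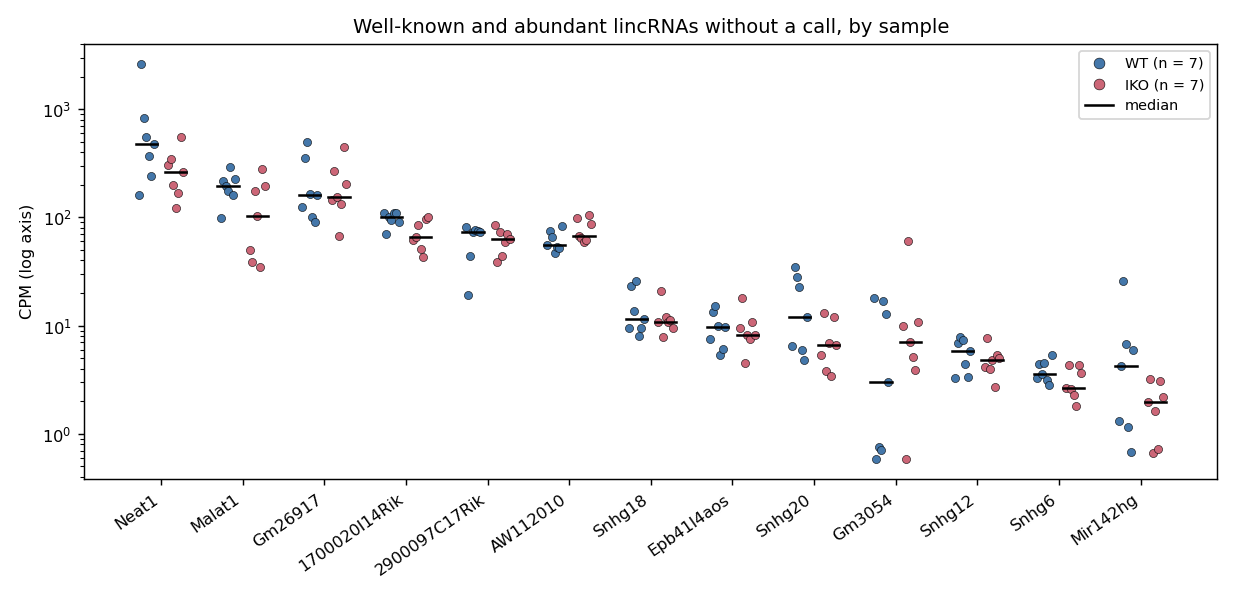
CPM (y axis, log scale) in each of the 7 WT and 7 IKO samples, with the median as a line, for 13 uncalled members that are well known or among the most abundant per length, ordered by median. The genotypes overlap in each, and the single high points are WT 2 for Neat1, WT 3 for Mir142hg and IKO 3 for Gm3054.

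The remaining members without a call are best read from their intervals. Of the 62 tested members that were not called, 46 were estimated within a 2-fold change, and for 26 of the 62 the whole 95% interval lay within it. Another 15 were estimated more than 2-fold lower in IKO, and 1, Gm26761, more than 2-fold higher (fold 2.14, 1.30 to 3.51; adjusted p = 0.0527; named after its value was seen). Gm26761 was at 0.920, 2.04 and 4.06 CPM in WT and at 4.04, 4.71 and 6.32 CPM in IKO, and the ranges overlapped by the lowest IKO sample alone. The standard error of the log2 fold change had a median of 0.34 in the members and 0.28 in all genes tested, and ranged from 0.16 to 1.63 among the members.

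By their pattern over samples, the members most like Gm2061 were given by the Pearson correlation of log2 CPM within each genotype (n = 7 each), as a description. In WT samples these were 2610035D17Rik (r = 0.86), 2210039B01Rik (r = 0.77) and Gm49539 (r = 0.75). In IKO samples they were Gm26809 (r = 0.81), Gm12596 (r = 0.78) and Gm42031 (r = 0.68). The lists had no gene in common, and the values of one sample share its depth and its scaling factor.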

How the data were processed

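RNA was measured in the ileum mucosa of 7 WT and 7 IKO mice. Per the paper's methods and the submitters' notes, the authors aligned the reads to mm10 with HISAT2 2.0.5 and made the deposited counts (whole numbers per gene, not normalized) with featureCounts 1.5.0-p3. The strand setting is not given in the sources used here. The deposited FPKM equal counts per kilobase divided by DESeq2 size factors times a constant, as checked on the values. The KO columns were read as IKO. The authors' own fold changes and p-values were not used.

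Counts passing filterByExpr were scaled by TMM and tested with edgeR 4.0.16 (glmQLFit, glmQLFTest; R 4.3.3). Genotype was the single term, and p-values were adjusted by Benjamini-Hochberg over 13846 genes, with calls at an adjusted p under 0.05. SE is the log2 fold change over the square root of F, and intervals are at 95%. Log2 CPM have a prior count of 2. Permutation tests are exact, two-sided and on mean log2 CPM. The nearest coding gene has the smallest gap between gene bodies. The fit was tested on simulated counts.

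The text names each called member with its nearest coding gene, the 5 members with the highest mean FPKM, members of lists of known noncoding RNAs, and the 3 most like the most changed member in each genotype. Members, lists and rules were chosen with earlier results of these data known. Alternatives were DESeq2 1.42.0, RLE scaling, other count filters (none, or 10 counts in each sample), limma 3.58.1 on log2 FPKM with a pseudocount of 1 or 0.1 (FPKM over 0.5 in 7 samples, or unfiltered), the sample number as a block, single samples left out, limits of 20 and 100 counts for members, and for neighbours the distance between start sites, the nearest tested gene and pairs within 100 kb. Sequences are from RefSeq (GRCm38.p6), and exons and RNA from GENCODE vM21.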

Additional observations from a re-analysis of the deposited data

Results flagged for a closer look

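In 58 groups of 7 samples, 1 for each genotype of each named gene with counts, the distance of the most extreme sample from the next was divided by the range of log2 CPM and set against Dixon's 95% critical value. Chance passes about 1 in 20 groups, here 2.9, and 2 passed. 1700020I14Rik was lowest in WT 2, at 69.9 CPM against 91.0 CPM in the next sample, a gap of 0.586 of the range. Snhg18 was highest in IKO 2, at 21.0 CPM against 12.02 CPM in the next, a gap of 0.570 of the range. Neither gene was called.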

How the results depend on the processing

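Of the 8 called members, Gm2061, Gm43672, AI427809, Gm37494 and AI504432 kept direction and call under every alternative in which they were tested, and so did the coding gene Tbl1xr1. Ftx lost its call in 1 of 20 alternatives, the replicate block, Gm10076 in 9 of 23, Gm46430 in 10 of 23 and Slc30a10 in 17 of 23, all with an unchanged direction. The genes called numbered 2444 of 17754 with DESeq2, 614 of 29041 with limma without filter and 508 of 29041 without a filter on counts. They numbered 606 of 13883 without WT 4 and IKO 4 (chosen after seeing the data) and 515 to 1371 with single samples left out. Members called numbered 15 of 71 with DESeq2, 19 of 163 at a limit of 20 counts and 5 of 38 at a limit of 100 counts. Both limits used the main fit, in which 8.67% of all genes were called. With single samples left out, 6 to 13 of the 70 or 71 tested members were called. The members' median was -0.11 with limma on log2(FPKM + 1), where the median of all genes was 0.02, -0.045 at a limit of 100 counts, -0.064 with a mean of at least 50 counts in each genotype (chosen after seeing the data), and -0.40 to -0.22 with single samples left out. Without a filter the median of all genes moved to -0.32 and that of the members was -0.31. Called neighbours of called members numbered 5 of 14 tested with DESeq2, 4 of 14 at a limit of 20 counts, and 1 of 6 or 7 with each of the 3 limma fits. They numbered 1 of 6 without a filter, 1 of 3 without WT 4 and IKO 4, and 1 to 3 with single samples left out. The cause was not tested in any of these.

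The sample numbers are not stated to pair the mice. Same-numbered samples had correlations of -0.31 to 0.23, and 1 of 14 samples correlated best with its own number. Such correlations cannot show whether same-numbered mice were littermates or were handled together. The fit with the number as a replicate block called 362 of 13846 genes, 5 of 70 members and 1 of 3 tested neighbours.

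Among genes that were never called, 4 changed sign. Gm26917 was at 0.027, 0.026 and 0.026 (log2) in the limma fits, 0.034 without WT 4 and IKO 4, and at -0.39 to 0.30 with single samples left out. 2900097C17Rik was at 0.0062 with DESeq2, 0.094, 0.077 and 0.077 in the limma fits, 0.055 with the replicate block, 0.078 without WT 4 and IKO 4, and -0.18 to 0.065 with single samples left out. Epb41l4aos was at 0.030 with DESeq2, 0.020 with RLE, 0.0070, 0.0075 and 0.0075 in the limma fits, 0.012 without a filter, 0.032 without WT 4 and IKO 4, and -0.24 to 0.14 with single samples left out. Gm3054 was at -0.30 to 1.26 with single samples left out.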

Other observations

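Several members without a call were present in some mice and nearly absent in others, in both genotypes. Gm42031, on chromosome 8, was at 160, 170 and 140 CPM in WT 3, WT 4 and WT 6 and at 53.1 CPM in IKO 5, while the other 10 samples were at 0.117 to 3.94 CPM. Its log2 fold change of -2.99 was the lowest estimate of all members (SE 1.63, adjusted p = 0.22). Gm49539 and Gm26772 shared their high samples: Gm49539 was at 17.3 CPM in WT 2, 41.2 CPM in WT 3 and 9.07 CPM in IKO 4, and Gm26772 at 18.8, 39.6 and 24.8 CPM in the same 3 samples. Outside these samples the highest values were 2.94 CPM for Gm49539 and 4.32 CPM for Gm26772, both in WT 4. Gm53, 6589 bases from Hoxb9, ranged from 0.193 to 18.4 CPM in WT and from 0.301 to 13.7 CPM in IKO. These genes were named after their values were seen.

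Among the 165 tested lincRNAs below the limit of 50 counts, 13 were called (7.88%, against 8.67% of all genes tested), 10 higher and 3 lower in IKO, with a median log2 fold change of -0.18 over the 165.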
